A study of Mus musculus with 9 samples.

Results

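Splenic and thymic iNKT1 cells were compared across 12512 of the 14004 genes in the deposited table, using the 3 spleen and 3 thymus libraries of a series of 9. A gene entered the comparison where its value was at least 1 in at least 3 of these 6 libraries. T cells of the iNKT (invariant natural killer T) lineage carry a semi-invariant receptor that sees lipids held by CD1d, and the iNKT1 subset is defined by the transcription factor T-bet. All groups were labelled as untreated iNKT1 cells from C57BL/6 mice with the genotype Tbx21CreTg;Rosa26-LSL-YFP+/+, in which Cre under Tbx21 (the T-bet gene) switches on a YFP reporter, so thymic and splenic cells carry the same alleles and YFP may mark cells that expressed Tbx21 earlier. The 3 liver libraries share that genotype and enter the fit as further libraries for the estimate of the spread, and are compared with spleen for Gzmb and Fgl2. Age, sex, the sort and any pooling of animals are not given in the sources used here, and p-values measure only the spread between libraries.

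In the thymus many iNKT1 cells stay as long-term residents with NK cell receptors and cytotoxic mediators, while splenic iNKT1 cells live in an organ through which blood and recirculating lymphocytes pass. Residency is known to involve the alphaE and alpha1 integrin chains, signals from TGF-beta, and a low level of receptors for exit to blood. Chemokine receptors, purine-sensing channels and antigen-receptor-induced transcription factors are further systems by which T cells adjust to a tissue.

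Values are the authors' normalised read counts, not scaled for gene length, so levels are compared between tissues for 1 gene and not between genes. The spleen libraries corresponded to between 32483307 and 39568081 reads and the thymus libraries to between 18506598 and 27706136. A read was found for 12232 to 12888 genes in spleen and for 10476 to 12222 in thymus, and a thymus value of about 0.02 to 0.04 stands for no read. The median SD of log2(value + 1) was 1.37 in thymus and 0.73 in spleen. Il2rb, a receptor chain for interleukin 15 that marks iNKT1 cells, lay between 34858 and 51548 in all 6 libraries, and Tbx21 was 3600, 2733 and 3560 in spleen and 1386, 5762 and 1868 in thymus. Of the 13 iNKT1 and T cell markers, all measured and tested, 1 (Klrd1) was called lower and none higher, 2 lay below and 1 above thymus, and 3 were lower and 2 higher at an unadjusted p under 0.05. Tbx21 and Il2rb overlapped between the tissues. In 2 libraries, marker genes stood apart from those of the other libraries. Thymus replicate 3 held Xist at 16531 together with 7016 reads of Y-linked genes, whereas the other 5 libraries held 1 of these at high level, and it had Rag1 at 486, a gene of immature thymocytes that was at 0.70 or lower in the others. Spleen replicate 1 held the immunoglobulin gene Igkc at 18137, against at most 161 in the other 5 libraries. Their part in the results was not tested, and counts without each are given below.

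At an adjusted p under 0.05, 27 genes were higher and 29 lower in spleen (limma-trend, Benjamini-Hochberg adjustment over 12512 genes). These were 0.448% of the genes tested, 0.216% higher and 0.232% lower. At an unadjusted p under 0.05 in the same fit, 993 genes were higher and 552 lower. All 56 had spleen values that did not overlap the thymus values. Over all tested genes, the 3 spleen values lay above all 3 thymus values in 9.53% (1193 genes) and below them in 5.84% (731 genes). Higher genes included the ADP-ribosyltransferase Art2b, the ATP-gated channel P2rx7, the chemokine receptor Ccr9 and the transcription factors Nr4a1, Nr4a3 and Irf4. Lower genes included the granzymes Gzmb and Gzma, the chemokine receptor Ccr8, the integrin chains Itgae and Itga1 and NK receptors of the Klrd1, Klre1 and Ly49 kinds. The call depended on the libraries used: 14, 11 and 9 genes were called without spleen replicates 1, 2 and 3 (6 higher and 8 lower without the first), and 161 without thymus replicate 3 (118 higher, 43 lower). With the 6 spleen and thymus libraries alone, 16 genes were called, 3 of them higher. Gzmb, Art2b, Fgl2, Klrd1, Itga1 and the unnamed model Gm4956 were the 6 genes that passed under each of the 23 alternatives tried. Of the 56 genes, 35 also passed edgeR and 56 DESeq2. Gm4956, a gene model on chromosome 1, was 2728, 4668 and 3395 in spleen and 1.14, 12.7 and 0.0446 in thymus. Among genes described below, Gzma, Klra1, Itgb3, P2rx7, Irf4, Nr4a1, Rora, Ifit1, Apol9a, Serpina3f and Fes did not pass edgeR.

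**Figure D1:**
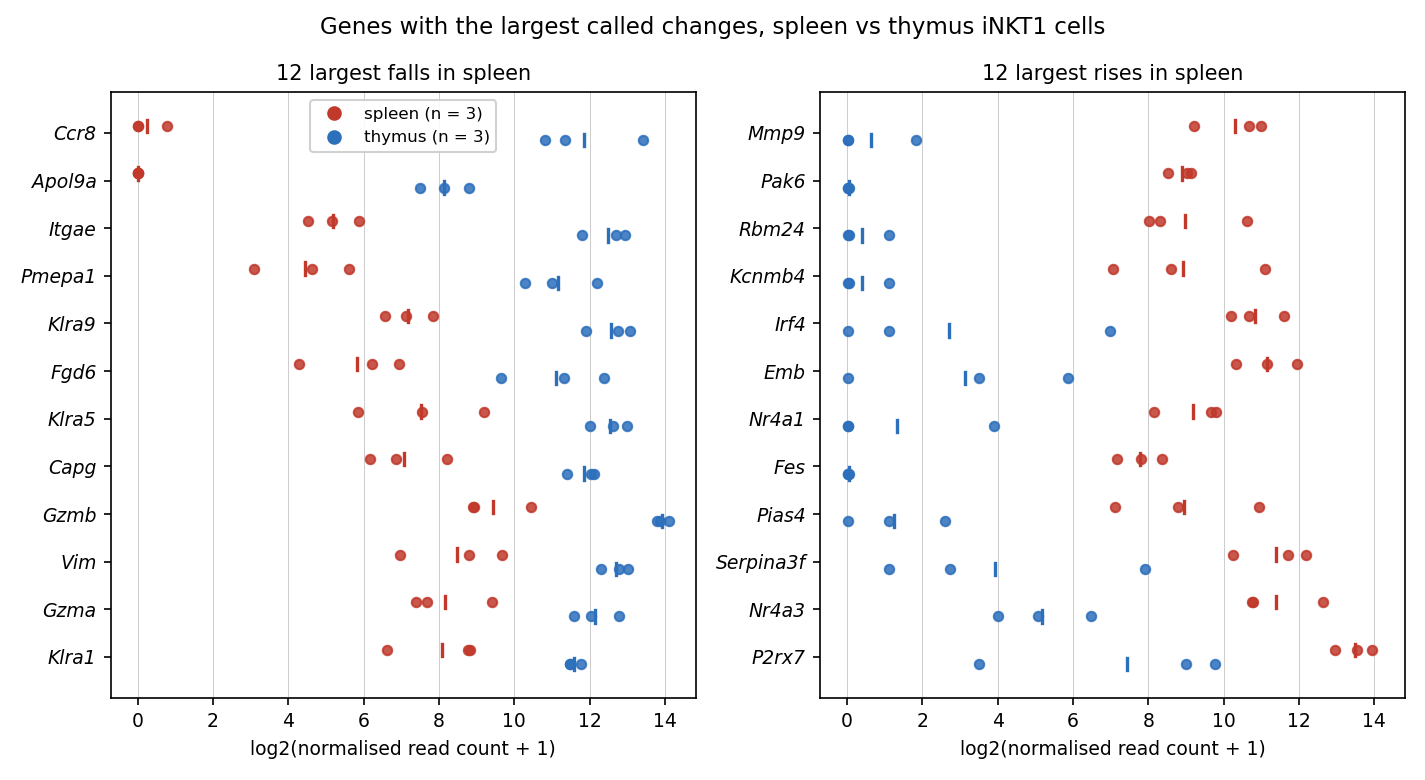
Level of the 12 genes with the largest falls (left) and the 12 with the largest rises (right) in spleen among genes past an adjusted p of 0.05, as log2(normalised read count + 1). Each point is 1 library, red for spleen and blue for thymus (n = 3 each), and each tick is the mean. No red point overlaps a blue one, and several rises rest on thymus points at 0, where no read was found.

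Granzymes were lower in spleen. Granzyme B, encoded by Gzmb (chromosome 14, 56258838 to 56262260, GRCm38), is a protease that killer lymphocytes deliver to target cells. Its values were 477, 487 and 1395 in spleen and 15045, 17618 and 14109 in thymus. Spleen replicate 3 was the highest of the spleen libraries and was still far below each thymus library. The log2 fold change was -4.50 (SE 0.40, adjusted p = 7.96e-05). In these bulk libraries, fewer cells with a transcript and less of it per cell cannot be told apart. Gzma, a second granzyme, was 681, 204 and 166 in spleen and 4179, 7043 and 3087 in thymus (log2 fold change -3.98, adjusted p = 0.0426). Perforin did not share this difference in value, since Prf1 was 775, 867 and 1032 in spleen and 323, 2220 and 974 in thymus. Of 22 tested genes of granule cargo and exocytosis, these 2 granzymes fell and none rose, 4 lay below and 2 above thymus without overlap, and the median log2 fold change was -0.05, beside 0.30 for all genes. Cathepsin W (Ctsw) and cathepsin C (Ctsc, which activates granzymes) were 3954, 4248 and 5308 against 21070, 7885 and 10611, and 1467, 1036 and 680 against 4559, 3664 and 2262, at adjusted p of 0.0851 and 0.146. The summed value of the 23 measured genes of this list took 0.234% to 0.247% of the spleen libraries and 0.33% to 0.429% of the thymus libraries.

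NK cell receptors were lower in spleen more often than higher. Klrd1 (chromosome 6, 129591782 to 129598775), which encodes CD94, the partner of the NKG2 receptors, was 2784, 3420 and 2173 in spleen and 17224, 13285 and 20458 in thymus. The thymus values were all above the spleen values (log2 fold change -2.61, SE 0.30, adjusted p = 0.000856). Its neighbour Klre1 (129577905 to 129585827) also fell, by 2.53 on the log2 scale. Of 20 tested NK lectin-like and other NK receptors, these 2 fell and none rose, 10 lay below thymus and 4 above, and the median log2 fold change was -1.15. Klrk1, which encodes the activating receptor NKG2D, was 5771, 6278 and 3475 in spleen and 14029, 15445 and 11780 in thymus at an adjusted p of 0.0608. Members that lay above thymus without passing included Cd226, an activating adhesion receptor, at 11989, 14493 and 11384 against 9179, 3894 and 7038. This list had 1 member called lower without spleen replicate 1 and 3 without thymus replicate 3.

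The Ly49 receptors, lectin-like receptors for MHC class I encoded by the Klra genes, had the lowest median of the 41 pathway and family lists, -3.81. Of 11 measured members, 10 were tested and 2 had no read in spleen. All 10 tested members lay below thymus in every spleen library, and 3 fell past the threshold. Klra9 (chromosome 6, 130178675 to 130193112) was 93.9, 140 and 229 in spleen and 8606, 6857 and 3794 in thymus (log2 fold change -5.39, SE 0.93, adjusted p = 0.0177). Klra5 (129898996 to 129917650) was 584, 186 and 56.3 against 8174, 4081 and 6264 (log2 fold change -5.01, adjusted p = 0.0149). Klra1 (130363917 to 130386874) was 455, 433 and 97.7 against 2849, 3519 and 2840 (log2 fold change -3.50, adjusted p = 0.0399). The other 7 tested members ranged from Klra3, at 73.75, 70.1 and 46.1 against 679, 1268 and 340, down to Klra2, with no read in spleen and 9.0, 2.34 and 67.7 in thymus. Klra2 met the filter through thymus alone, so it could only lie below, and its place in the count and the median carries no weight. The family's summed value was 0.00557%, 0.0055% and 0.00259% of the spleen libraries and 0.0819%, 0.0562% and 0.0754% of the thymus libraries. The list had 1 member called without spleen replicate 1 and 2 without thymus replicate 3. With library totals made equal, with or without mitochondrial genes, all 10 still lay below thymus. Ly49 genes are near-copies of each other, so how reads were divided among single members is uncertain. The 250 bases before the RefSeq starts of Klra5 and Klra9 (GRCm38.p6, minus strand, chr6:129913225-129913474 and chr6:130193113-130193362) are shown because these 2 members had the largest called falls of the family, with the longest run they share, 31 bases, in capitals.
Klra5: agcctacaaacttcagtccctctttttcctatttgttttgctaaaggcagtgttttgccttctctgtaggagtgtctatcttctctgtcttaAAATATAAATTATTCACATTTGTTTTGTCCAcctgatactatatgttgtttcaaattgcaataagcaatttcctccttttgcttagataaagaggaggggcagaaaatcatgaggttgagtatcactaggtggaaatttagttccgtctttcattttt
Klra9: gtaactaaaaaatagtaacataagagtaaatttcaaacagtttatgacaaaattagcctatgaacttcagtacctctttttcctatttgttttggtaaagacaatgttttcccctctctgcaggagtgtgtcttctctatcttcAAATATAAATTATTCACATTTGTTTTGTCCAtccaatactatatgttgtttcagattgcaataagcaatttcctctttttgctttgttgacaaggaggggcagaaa
Shifted by 52 bases against each other, the windows matched at 134 of 198 positions, or 67.7%. The RefSeq start of Klra5 lies inside the GENCODE span of the gene given above.

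Fgl2 and Ptpn6, which act in restraint of lymphocytes, were lower in spleen. Fgl2, a secreted fibrinogen-like protein with immunosuppressive activity, was 3168, 4202 and 6137 in spleen and 34104, 24835 and 24475 in thymus (log2 fold change -2.66, SE 0.26, adjusted p = 0.000148). It is 1 of 18 tested cytokines and chemokines, of which none rose. In the list 6 genes lay above thymus and 1 below, and the median was 1.62, which was 0.61 in edgeR and 0.57 in DESeq2. Its summed value, which includes Fgl2, was 0.111%, 0.129% and 0.12% of the spleen libraries and 0.183%, 0.13% and 0.177% of the thymus libraries. The sum and the median thus differ in direction. Fgl2 made up 3168, 4202 and 6137 of the summed 30635, 28777 and 28431 in spleen. In thymus it made up 34104, 24835 and 24475 of 51257, 41521 and 41038. The lower sum therefore rests on Fgl2, and the sum of the other members was higher in spleen. Ccl5, a chemokine made by memory and killer cells, was 8190, 8682 and 5938 in spleen and 3637, 3356 and 777 in thymus at an adjusted p of 0.135. Ptpn6, which encodes the phosphatase SHP-1 that acts below inhibitory receptors, was 3417, 1692 and 2319 against 16256, 12080 and 10409 (log2 fold change -2.42, SE 0.32, adjusted p = 0.00351). Among 40 tested protein tyrosine phosphatases, lipid phosphatases and DUSPs, Ptpn6 and Inpp4b fell, none rose, and the median was -0.13. The list took 0.436%, 0.588% and 0.518% of the spleen libraries and 0.667%, 0.659% and 0.781% of the thymus libraries.

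**Figure D2:**
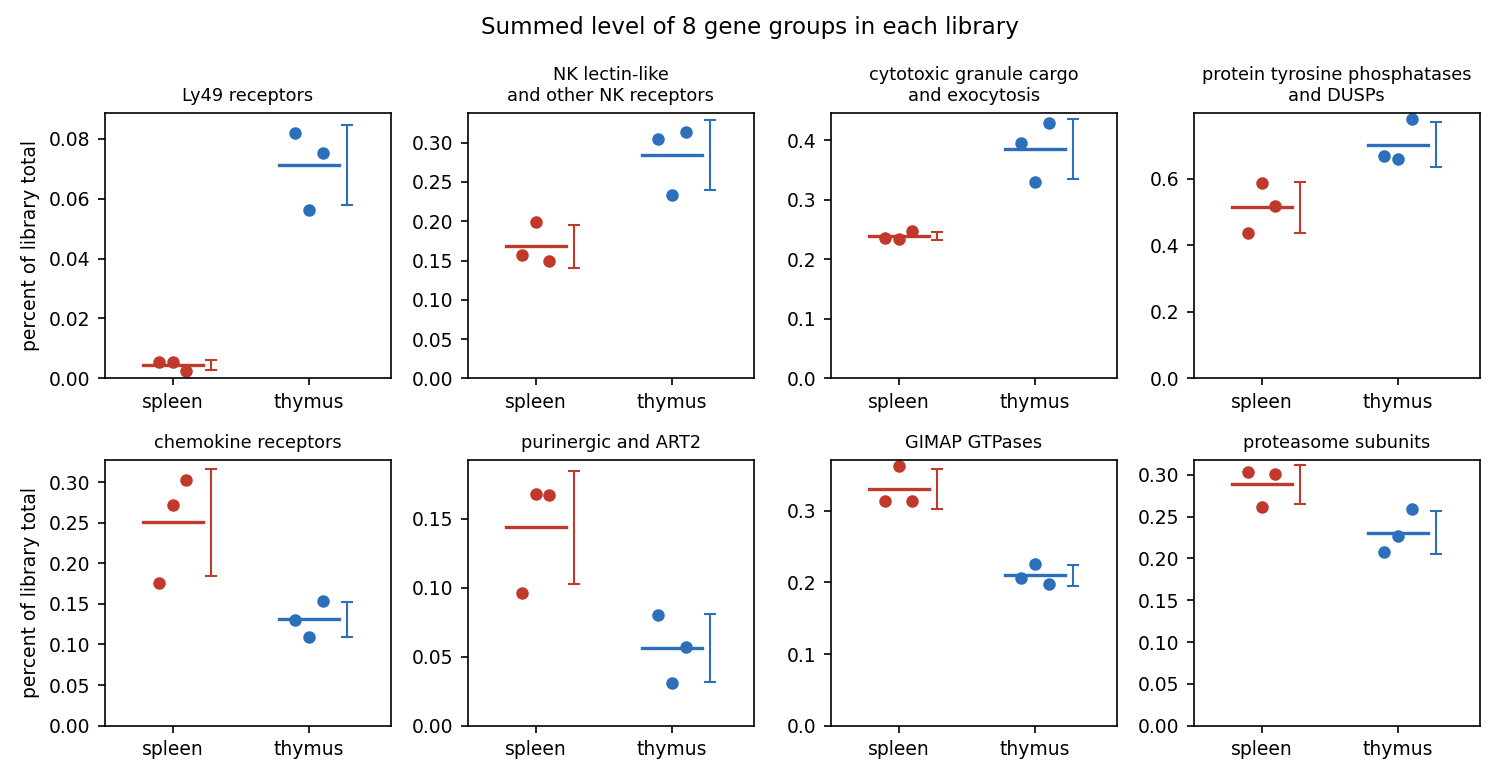
Summed value of 8 gene groups as a percent of each library's total, with 1 point per library (red spleen, blue thymus, n = 3 each), the mean as a horizontal line and its SD as the bar at the side. The Ly49 sum is 0.00259% to 0.00557% in spleen and 0.0562% to 0.0819% in thymus, and in each of the 8 groups the spleen and thymus points do not overlap. The 8 are a choice from 41 pathway and family lists, and the sums of others, such as integrin chains and interferon-stimulated genes, overlapped. A sum can rest on a few members, as that of the purinergic and ART2 group rests on its called genes.

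Integrin chains, the subunits by which cells hold matrix and other cells, changed in both directions. Itgae, which encodes the alphaE chain (CD103) that binds epithelial E-cadherin, was 58.1, 35 and 22.1 in spleen and 6590, 3586 and 7786 in thymus. Each thymus library was high and each spleen library low (log2 fold change -7.28, SE 1.22, adjusted p = 0.016). Itga1, the alpha1 chain of a collagen receptor, was 1694, 1898 and 952 against 8799, 8298 and 7964 (log2 fold change -2.52, SE 0.34, adjusted p = 0.00353). Itgb3, the beta3 chain of the vitronectin receptor, rose from 517, 324 and 2849 in thymus to 6793, 5131 and 5955 in spleen (log2 fold change 2.92, adjusted p = 0.0462). Of 20 tested chains, 7 lay above thymus and 2 below, with a median of 0.50. Members above thymus that did not pass included Itga4, a chain of the receptor for VCAM-1, at 5706, 5234 and 1710 against 566, 981 and 1104, and Itgal, the LFA-1 alpha chain, at 33455, 35481 and 39888 against 29315, 21981 and 31142. Leaving out spleen replicate 1 left 1 chain called lower and none higher.

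Genes tied to TGF-beta signalling were lower more often than higher. Besides Itgae, which TGF-beta induces in T cells, Pmepa1, a feedback inhibitor and target of the pathway, fell from 1246, 4652 and 2029 in thymus to 23.8, 7.51 and 47.9 in spleen (log2 fold change -6.71, SE 1.26, adjusted p = 0.0276). Of 18 tested receptors, signal carriers and targets, 2 fell, none rose, 7 lay below thymus and 1 above, and the median was -0.47. As deposited, the receptor Tgfbr2 was among those below by a narrow gap, at 4439, 4484 and 5487 against 5560, 7094 and 5935. With library totals made equal, with or without mitochondrial genes, 5 members lay below thymus and 1 above. The member above was Furin, a protease that matures the TGF-beta precursor, at 2679, 4567 and 5440 against 1596, 103 and 186, with an adjusted p of 0.0521. No member was called without spleen replicate 1, and 2 were called lower without thymus replicate 3.

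Chemokine receptors, which steer cells between and within tissues, changed in both directions. Ccr8, a receptor of skin and thymic T cells, had 0.70, 0 and 0 in spleen and 2610, 10829 and 1799 in thymus. Against a floor of 3 reads over the spleen libraries it was at least 2497-fold lower in spleen (adjusted p = 0.0138). Ccr9, the receptor for the gut and thymus chemokine CCL25, was 4601, 6020 and 8581 in spleen and 262, 59.0 and 693 in thymus (log2 fold change 4.80, SE 0.67, adjusted p = 0.00458). Cxcr6, which guides iNKT cells to CXCL16, was 21071, 27996 and 34515 against 16103, 12203 and 20490 at an adjusted p of 0.174. Of 11 tested receptors, 2 rose, 1 fell, 4 lay above thymus and 1 below, and the median was 0.90. The summed value of the 16 measured receptors was 0.176%, 0.272% and 0.303% of the spleen libraries and 0.13%, 0.109% and 0.153% of the thymus libraries. Without spleen replicate 1, 1 receptor was called higher and none lower.

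Genes of lymphocyte recirculation, which control entry to lymph nodes and exit to blood, held 1 called gene. Emb (embigin, a membrane partner of monocarboxylate transporters) rose from 0.0213, 10.4 and 57.7 in thymus to 1293, 2260 and 3951 in spleen (log2 fold change 8.0, adjusted p = 0.0149), and it was the only called member of 13 tested. Il7r, the receptor for the survival cytokine interleukin 7, was 15547, 17003 and 8546 in spleen and 39747, 50118 and 27831 in thymus, with an adjusted p of 0.0702. S1pr1, the receptor for egress into blood, was 640, 593 and 184 in spleen and 752, 841 and 1039 in thymus, and its regulator Klf2 was 168, 63.2 and 68.3 against 2697, 171 and 300. As deposited, both lay below thymus without passing, among 3 members below and 4 above. With equal library totals 1 member lay below and 4 above, and with totals taken outside mitochondrial genes 2 and 4. The median was 0.16, or -0.01 in DESeq2, while the summed value was lower in spleen. It was 0.153%, 0.18% and 0.146% of the spleen libraries and 0.234%, 0.23% and 0.211% of the thymus libraries. Il7r made up 15547, 17003 and 8546 of the summed 42269, 40297 and 34689 in spleen. In thymus it made up 39747, 50118 and 27831 of 65634, 73638 and 49009. The lower sum therefore rests on Il7r, and the sum of the other members was not lower in spleen.

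The ART2 and purine-sensing genes had 3 rises and a median of 1.78, which was 0.59 in edgeR and 0.53 in DESeq2. ART2 enzymes attach ADP-ribose from extracellular NAD to surface proteins, among them the ATP-gated channel P2X7, and can thereby kill the T cell that bears both. Art2b (chromosome 7, 101576970 to 101585600) was 5768, 8145 and 7762 in spleen and 378, 283 and 376 in thymus. Replicates were close in both tissues, and the spleen mean was 20.9 times the thymus mean (log2 fold change 4.38, SE 0.39, adjusted p = 7.96e-05). Its neighbour Art2a-ps (101552453 to 101560865) was 3429, 7150 and 5303 against 473, 510 and 70.2 (log2 fold change 4.29, adjusted p = 0.00734), and since the pair are near-copies, their reads may be shared. P2rx7 (chromosome 5, 122643911 to 122691432) was 8005, 11827 and 15862 in spleen and 881, 10.4 and 514 in thymus, where the replicates differed widely (log2 fold change 6.05, SE 1.09, adjusted p = 0.0233). Of 11 tested members, 3 rose and none fell. P2rx4, a related channel, was 658, 577 and 212 against 3.39, 3.5 and 52.7 without passing. As deposited, the enzymes that break ATP down to adenosine lay the other way without passing. Nt5e (CD73) was 1045, 614 and 802 against 4946, 3078 and 3641 (adjusted p = 0.101), and Entpd1 (CD39) was 971, 1225 and 1768 against 2428, 2029 and 2521 (adjusted p = 0.38). In the list 5 members lay above and 3 below thymus. With library totals made equal, with or without mitochondrial genes, 5 lay above and 1 below. The summed value was 0.0964%, 0.168% and 0.167% of the spleen libraries and 0.0803%, 0.0311% and 0.057% of the thymus libraries. This higher sum rests on Art2b, Art2a-ps and P2rx7, and the sum of the other members overlapped between the tissues. Without spleen replicate 1, 2 members were called higher, and without thymus replicate 3, 4 were.

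The GIMAP genes, GTPases of immune cells linked to lymphocyte survival, all had positive fold changes. Gimap7 rose from 29.2, 437 and 148 in thymus to 3063, 3000 and 3701 in spleen (log2 fold change 4.69, SE 0.73, adjusted p = 0.0114). Of 8 tested members, 3 lay above thymus and none below, and the median was 0.50. Gimap1 was 6534, 4325 and 4207 against 2803, 3378 and 1558 (adjusted p = 0.329). Their summed value was 0.314%, 0.362% and 0.314% of the spleen libraries and 0.207%, 0.226% and 0.197% of the thymus libraries, so the tissues did not overlap, with 1 member past the threshold. Without spleen replicate 1, no member was called.

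Transcription factors induced by antigen receptor signals were among the rises. Nr4a3, an orphan nuclear receptor of that kind, was 6347, 1765 and 1717 in spleen and 88.6, 32.4 and 15.1 in thymus (log2 fold change 6.20, SE 0.84, adjusted p = 0.00353). Nr4a1, which encodes Nur77, was 884, 816 and 281 against 0.0212, 0.0274 and 13.8 (log2 fold change 7.88, adjusted p = 0.0471). Irf4, whose level follows receptor signal strength, was 3138, 1643 and 1177 against 0.0213, 1.18 and 127 (log2 fold change 8.12, adjusted p = 0.0223). Spleen replicate 1 was the highest of the spleen libraries for these 3 genes, and without it no member of the immediate early or transcription factor list was called. Of 35 tested immediate early and AP-1 genes, 2 rose, none fell, 8 lay above thymus and none below, and the median was 0.29, beside 0.30 for all genes. Jun was 227, 349 and 406 against 0.0212, 1.19 and 6.32 (adjusted p = 0.0733), while Egr1 was 4509, 2753 and 913 against 1660, 1236 and 2680 (adjusted p = 0.83) and Nr4a2 was at most 31.4 in these libraries. Of 35 tested transcription factors of iNKT and T cells, Irf4 and Rora rose and none fell. Rora, a nuclear receptor of innate-like lymphocytes, was 5695, 9771 and 13276 against 1693, 2822 and 3534 (log2 fold change 1.82, adjusted p = 0.0439). Zbtb16, which encodes the iNKT lineage factor PLZF, was 2222, 2620 and 2339 against 1661, 2905 and 3305 (adjusted p = 0.96).

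Among cytokine signalling genes, the kinase Jak2 was the called rise within the 500 genes of highest mean. It was 9420, 16739 and 14221 in spleen and 3893, 4466 and 4495 in thymus (log2 fold change 1.61, SE 0.27, adjusted p = 0.016). Of 22 tested JAK, STAT and SOCS genes and regulators, Jak2 rose and Ptpn6 fell, and the median was 0.16. Socs3, a feedback inhibitor of the pathway, was 219, 406 and 272 against 0.0212, 0.0273 and 5.07 with an adjusted p of 0.0521. None of 24 tested cytokine receptors was called by limma-trend or edgeR, with 3 above and 4 below thymus, 5 at an unadjusted p under 0.05 (2 higher, 3 lower) and 3 called by DESeq2 (1 higher, 2 lower). Il12rb2, the interleukin 12 receptor chain, was 5908, 5796 and 7244 against 19403, 8730 and 12823 (adjusted p = 0.156), and Il2rg, the common gamma chain, was 15165, 18201 and 21273 against 11753, 7814 and 10915 (adjusted p = 0.161).

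Interferon-stimulated genes were lower in spleen in more cases than they were higher. Ifit1, which binds foreign RNA, was 519, 1324 and 519 in spleen and 3616, 3151 and 4773 in thymus (log2 fold change -2.42, SE 0.48, adjusted p = 0.0418). Apol9a had no read in spleen and 178, 280 and 439 in thymus, at least 147-fold lower in spleen against a floor of 3 reads (adjusted p = 0.0241). Of 48 tested members, these 2 fell and none rose, 11 lay below thymus and 4 above, and the median was -0.30. Ifit3, a partner of Ifit1, was 510, 508 and 501 against 2262, 1782 and 1977 (adjusted p = 0.19), and Isg15, a ubiquitin-like modifier, was 356, 526 and 728 against 823, 1546 and 1638 (adjusted p = 0.44). Ly6a, which encodes Sca-1, went the other way in value, at 4032, 2938 and 8250 against 1059, 740 and 2228 (adjusted p = 0.13). The list's summed value overlapped between tissues, at 0.412% to 0.675% in spleen and 0.51% to 0.641% in thymus. Without spleen replicate 1 no member was called, and with library totals made equal or mitochondrial genes left out of them, 8 or 7 members lay below and 3 or 5 above thymus. The 250 bases before the RefSeq start of Ifit1 (GRCm38.p6, plus strand, chr19:34640639-34640888) are shown because this gene fell and its family is known for interferon response elements, here searched as GAAA followed after any 2 bases by a further GAAA, on either strand, with matches in capitals.
Ifit1: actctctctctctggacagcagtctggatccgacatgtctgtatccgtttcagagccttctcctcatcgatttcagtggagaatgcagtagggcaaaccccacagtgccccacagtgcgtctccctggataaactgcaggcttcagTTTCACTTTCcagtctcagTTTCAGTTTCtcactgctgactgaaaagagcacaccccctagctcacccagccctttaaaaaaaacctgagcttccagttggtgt
The motif was found in 978 of 32851 windows of the same length (2.98%), and 2 or more matches in 59 (0.18%). Of the 37 list members with a window, 21 had a match.

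Genes of the cytoskeleton included falls and no rise. Vim, the intermediate filament protein vimentin, fell from 8347, 7064 and 5034 to 822, 445 and 124 (log2 fold change -4.22, SE 0.69, adjusted p = 0.0149). Capg, which caps actin filaments, fell from 4437, 4229 and 2719 to 294, 116 and 71.3 (log2 fold change -4.78, adjusted p = 0.0407). Anxa2, a membrane-binding annexin, was 380, 243 and 312 in spleen and 1827, 2127 and 2755 in thymus, and Ahnak, a giant scaffold protein bound by annexin 2, was 34514, 32230 and 23208 against 70688, 71325 and 64648. Ahnak is among the 10 genes of highest mean outside the mitochondrial genes, and the fold change was -1.22 on the log2 scale (SE 0.19, adjusted p = 0.0104). Of 40 tested actin and motility genes, Vim and Capg fell, none rose, 8 (20%) lay below thymus and 1 above, and the median was 0.04. Below thymus lay 5.84% of all tested genes and 22% of the 500 genes of highest mean, so the share is near that of abundant genes. With library totals made equal, with or without mitochondrial genes, 6 lay below and 3 or 2 above. The summed value of this list overlapped, at 1.9% to 2.13% in spleen and 1.73% to 2.07% in thymus.

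**Figure D3:**
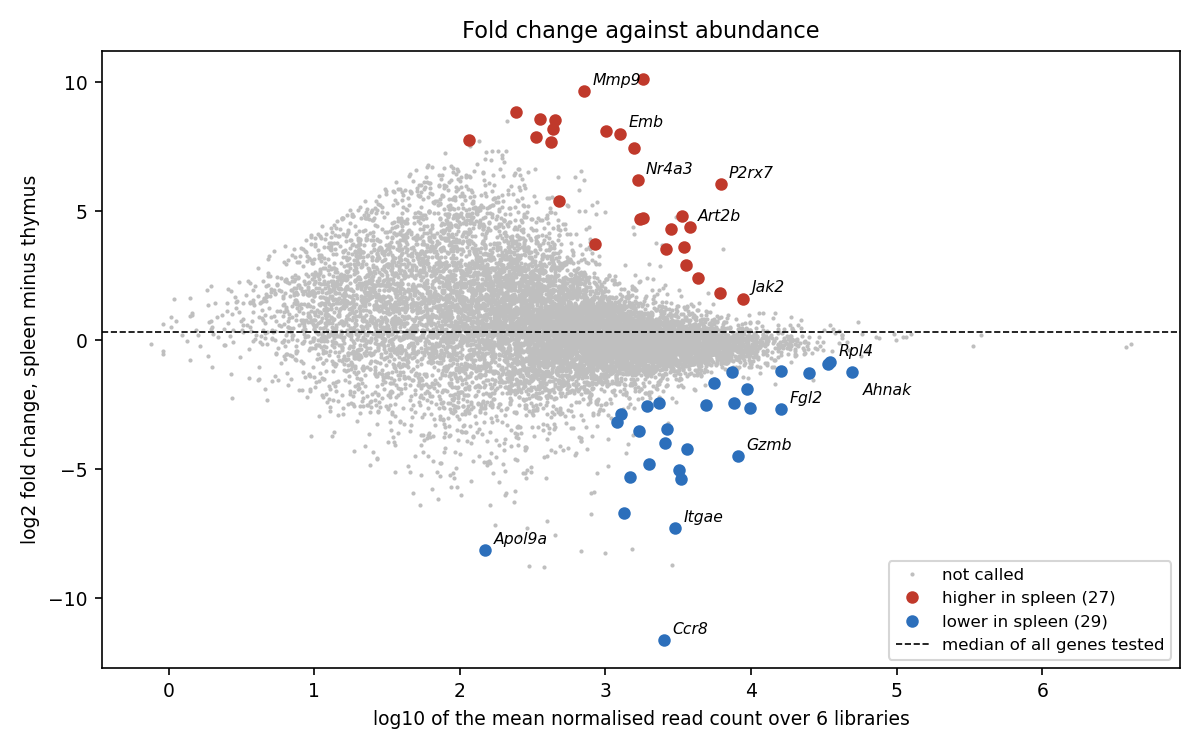
Log2 fold change (spleen minus thymus) of the 12512 tested genes against log10 of their mean normalised read count over the 6 libraries. Grey points are genes not called, red and blue points the 27 and 29 called genes, and the dashed line is the median of all genes, 0.30. The grey cloud narrows and its centre moves below the line towards abundant genes.

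Abundant genes differed little in size but leaned to one side. The 500 genes of highest mean held 58.1% of the spleen and 58.6% of the thymus values, and 467 of them (93.4%) had tissue means on the log2 scale within 2-fold of each other. Of these 500, 11 fell and 1 rose, and 110 (22%) lay below thymus against 24 (4.8%) above. The median log2 fold change was -0.18, while the 7512 genes of lowest mean had a median of 0.88, with 12.1% above thymus and 2.97% below. The median SD over libraries in the 500 was 0.22 in spleen and 0.40 in thymus, and in the 7512 it was 1.18 and 2.17. The lean depended on the scaling. With equal library totals, 61 of the 500 lay below and 33 above and the median was -0.02, and with totals taken outside mitochondrial genes the counts were 74 and 46. No read was found in at least 1 thymus library for 3140 tested genes and in at least 1 spleen library for 1133, and the part of depth in the rise of low genes was not tested.

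**Figure D4:**
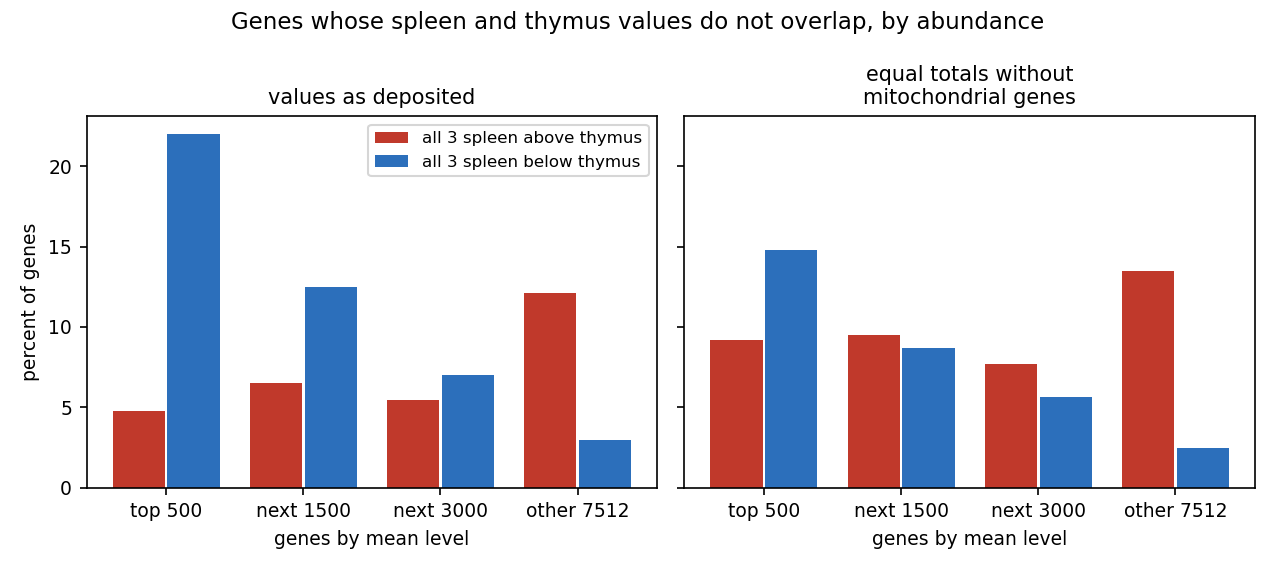
Percent of genes whose 3 spleen values all lay above (red) or below (blue) the 3 thymus values, in 4 bands of mean level, for the deposited values (left) and after equal totals outside mitochondrial genes (right). In the top 500 the blue bar falls from 22% to 14.8% and the red bar rises from 4.8% to 9.2%, while in the 7512 lowest genes red stays far above blue.

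Single abundant genes show the size of these shifts. Rpl4, a protein of the large ribosomal subunit, was 24338, 24587 and 26381 in spleen and 41867, 45209 and 47197 in thymus, a log2 fold change of -0.83 (SE 0.15, adjusted p = 0.0266). Inpp4b, a phosphoinositide phosphatase, was 21793, 25895 and 22010 against 42140, 41388 and 48430, and Ugcg, which makes glucosylceramide, the base of many glycolipids, was 15257, 15448 and 12347 against 42269, 25933 and 38426. Both fell, by 0.92 and 1.29 on the log2 scale. Dennd4a, an activator of Rab GTPases, Ssh2, a phosphatase of the actin regulator cofilin, and Sema4a, a semaphorin, fell by 1.20, 1.90 and 1.24. Rpl4, Inpp4b, Ugcg, Dennd4a and Sema4a did not pass edgeR. Of the 10 most abundant genes outside the mitochondrial set, Ahnak alone was called. B2m, the light chain of MHC class I and CD1d, was 110300, 105490 and 149800 in spleen and 112060, 111840 and 104550 in thymus, and Actb was 123920, 101950 and 119260 against 85283, 131520 and 100700. Ptprc (CD45) was 39668, 40711 and 42142 against 43631, 71216 and 46964, and the elongation factor Eef1a1 was 50648, 41210 and 44052 against 58325, 82629 and 66604 (adjusted p = 0.146). Malat1, a nuclear non-coding RNA, and Mbnl1, a splicing regulator, had log2 fold changes of 0.22 and -0.40. Lars2, Gm23935 and ENSMUSG00000093077 peaked together in thymus replicate 2, Lars2 at 240890 against 36426 and 37315 in the other thymus libraries.

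Translation and energy lists held 1 called gene. For lists with no call by limma-trend, edgeR also called none, and the counts at an unadjusted p under 0.05 and by DESeq2 are given below. Among all 12512 genes, 993 were higher and 552 lower at an unadjusted p, and DESeq2 called 225 higher and 232 lower. DESeq2 gave no adjusted p for 817 of the 12512 genes, among them 7 of 184 solute carriers, 5 of 20 integrin chains and 4 of 72 chaperones. Of 80 tested cytosolic ribosomal protein genes, Rpl4 fell and none rose, 9 lay below thymus and none above, and the median was -0.11. With equal totals 5 lay below and 2 above, and their summed value overlapped, at 2.0% to 2.18% in spleen and 1.64% to 2.56% in thymus. None of 61 translation factors was called (2 higher and 5 lower unadjusted, 1 and 1 in DESeq2), with 8 below and 3 above as deposited, and with equal totals 4 below and 5 above. None of 78 nuclear-encoded oxidative phosphorylation genes was called (8 higher and 2 lower unadjusted, 3 and 1 in DESeq2), with 11 above and 2 below and a median of 0.44. Within it, Cox8a, a subunit of complex IV, was 3153, 1602 and 1856 against 422, 442 and 1049 (adjusted p = 0.195), and Ndufv1, a complex I subunit, was 5.92, 85.2 and 340 against 2013, 1627 and 396 (adjusted p = 0.189). The 7 mitochondrially encoded respiratory chain genes all overlapped, with a median of 0.13 and none past an unadjusted p or DESeq2. None of 76 mitochondrial ribosomal protein genes was called (9 above and 4 below thymus, 7 higher and 2 lower unadjusted, none in DESeq2). Glycolysis (30 genes), the TCA cycle (27) and sterol and fatty acid synthesis (29) had no called member and medians of 0.09, 0.23 and 0.07. At an unadjusted p these lists had 3, 2 and 1 genes, and in DESeq2 0, 2 and 0. Cpt1a, the gate enzyme of mitochondrial fatty acid use, was 4121, 2350 and 1897 against 639, 849 and 303 (adjusted p = 0.0776).

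No proliferation gene was called. None of 48 DNA replication genes and none of 44 mitosis genes passed, although the mitosis list had a median of 1.66 with 8 genes above and 2 below thymus. At an unadjusted p under 0.05, 1 replication gene was higher and 3 lower, and 5 mitosis genes were higher and 1 lower. DESeq2 called 1 replication gene lower and 3 mitosis genes, 2 of them higher. Aurkb, a mitotic kinase, was 59.6, 209 and 278 in spleen and 0.0212, 4.66 and 6.32 in thymus (adjusted p = 0.225), and Smc2, a condensin subunit, was 1013, 1733 and 1369 against 4157, 5176 and 2516 (adjusted p = 0.173). The summed value of the mitosis list overlapped, at 0.0648% to 0.0999% in spleen and 0.0565% to 0.0834% in thymus.

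Proteasome genes differed in their sum. None of 45 proteasome genes was called (2 higher and 1 lower unadjusted, none in DESeq2), and 5 lay above and 1 below thymus, with a median of 0.33. Their summed value was 0.303%, 0.261% and 0.301% of the spleen libraries and 0.207%, 0.226% and 0.258% of the thymus libraries, a narrow gap. Of 22 MHC class I presentation genes, none was called and 2 lay above, both at an unadjusted p under 0.05, with none in DESeq2. H2-K1, a classical class I heavy chain, was 35947, 36413 and 53569 against 28425, 22561 and 30646 (adjusted p = 0.216). Chaperones (72 genes), autophagy and lysosome genes (37), splicing factors (56), histone-modifying enzymes (77) and solute carriers (184) had no called member and medians of 0.36, 0.33, 0.01, -0.05 and 0.33. As deposited, the sums of the MHC class I, chaperone and autophagy lists overlapped between the tissues. In the order from chaperones to solute carriers, 4, 7, 4, 10 and 21 genes passed an unadjusted p under 0.05, beside 1545 of all 12512 genes. DESeq2 called 0, 2, 2, 2 and 2.

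**Figure D5:**
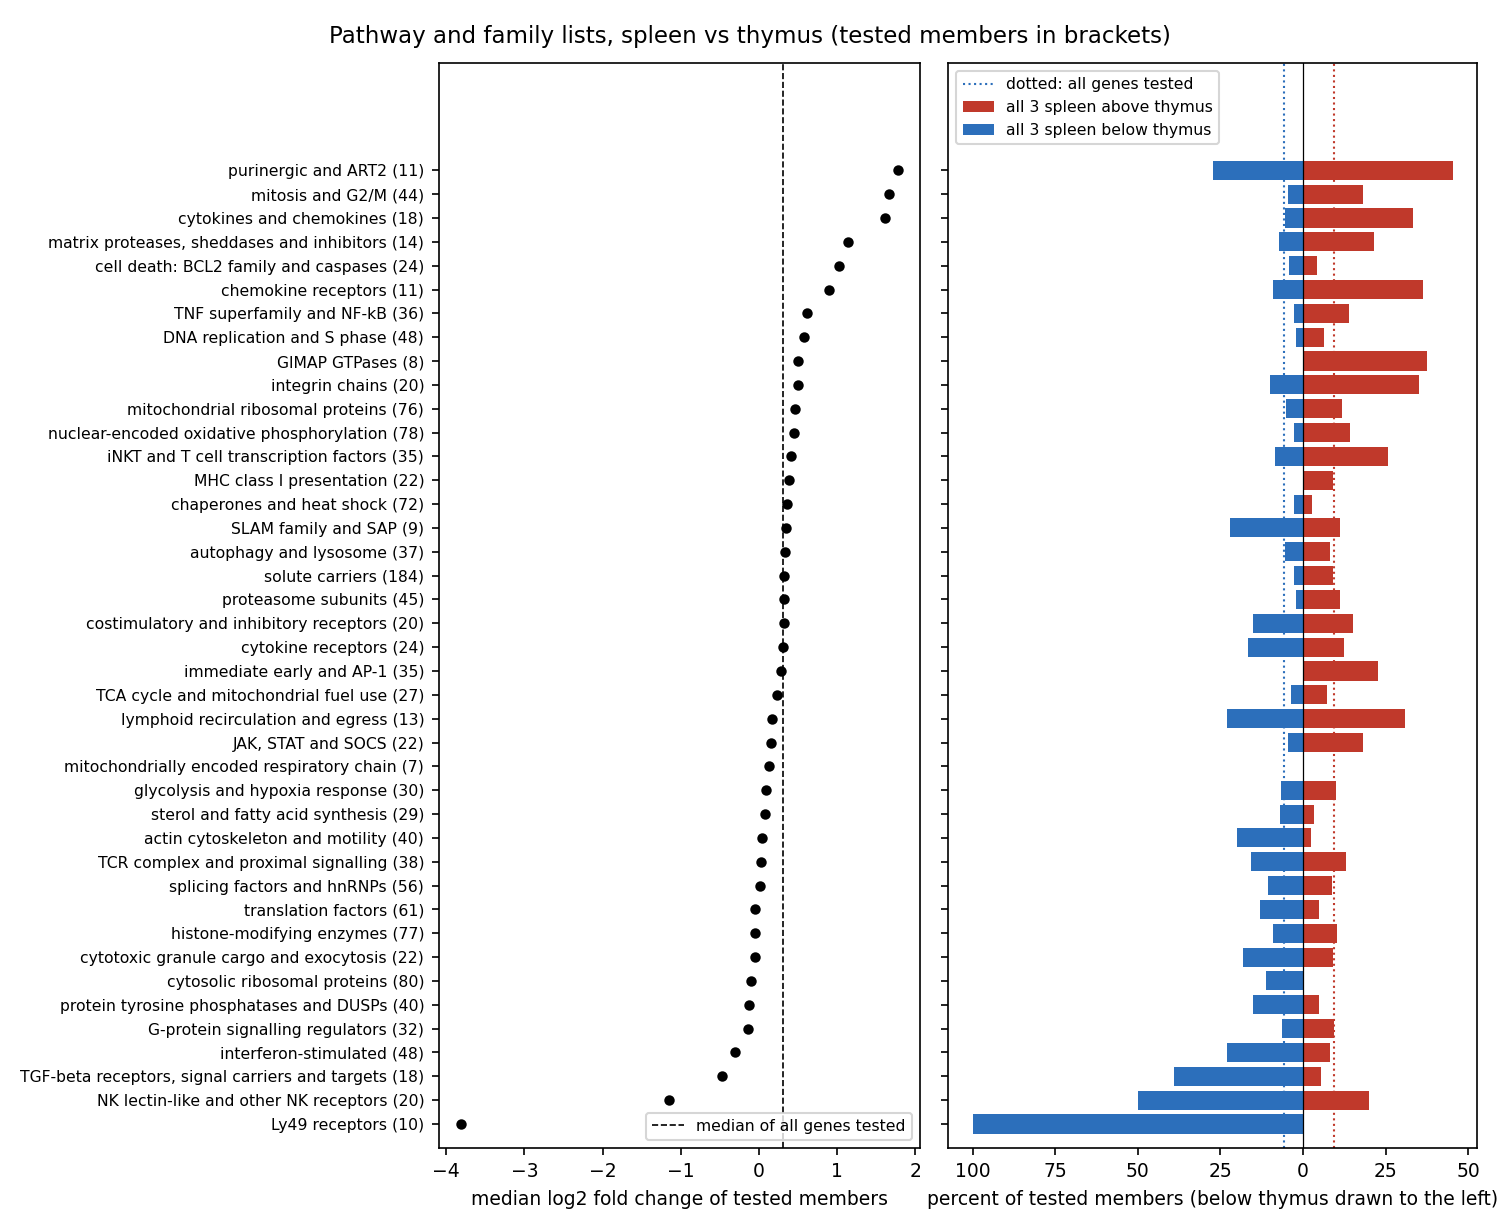
Left, median log2 fold change of the tested members of 41 pathway and family lists (number of members in brackets), with the median of all genes as a dashed line. Right, percent of members whose spleen values all lay above (red, to the right) or below (blue, to the left) the thymus values, with dotted lines at 9.53% and 5.84% for all genes tested. Ly49 receptors stand at 100% below and the ART2 and purinergic list at 45.5% above. The Ly49 share includes Klra2, which met the filter through thymus alone.

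T cell receptor signalling and costimulation held no called gene. None of 38 genes of the receptor complex and proximal signalling was called (7 higher and 3 lower unadjusted, 1 lower in DESeq2), with 5 above and 6 below and a median of 0.03, and with equal totals 6 above and 2 below, or 9 above and 2 below with totals taken outside mitochondrial genes. On that last scale the sum of the list was 1.77%, 1.82% and 1.86% in spleen and 1.71%, 1.73% and 1.74% in thymus, whereas as deposited the sums overlapped. The costimulatory list's sum also overlapped as deposited and lay higher in spleen outside mitochondrial genes. The SLAM sum was 0.166% to 0.184% in spleen and 0.119% to 0.164% in thymus, and the sum of the TNF and NF-kB genes was 0.231% to 0.262% against 0.154% to 0.203%. Cd6, a regulatory co-receptor, was 2164, 2946 and 1545 against 6223, 5189 and 4484 (adjusted p = 0.164), and Lat, the main adaptor of the pathway, was 7467, 2704 and 5240 against 1820, 1491 and 2827 (adjusted p = 0.234). None of 20 costimulatory and inhibitory receptors, 9 SLAM family genes or 24 genes of the BCL2 family and caspases was called. At an unadjusted p under 0.05 these had 6, 6 and 4 genes, beside 1545 of all 12512 genes, and in DESeq2 4, 1 and 1. Tnfrsf9, the costimulatory receptor 4-1BB, was 2372, 2283 and 4913 against 220, 753 and 1070 (adjusted p = 0.159). Of 36 TNF superfamily and NF-kB genes, none was called (3 higher unadjusted, none in DESeq2) and 5 lay above and 1 below, with a median of 0.62. Traf1, an adaptor of TNF receptors, was 2325, 1964 and 1960 against 346, 1435 and 589 (adjusted p = 0.239). The G-protein regulators (32 genes) had no called member (2 higher and 1 lower unadjusted, 1 and 2 in DESeq2) and a median of -0.14, and Rgs2, which limits Gq signals, was 567, 617 and 1305 against 4002, 10023 and 1706 (adjusted p = 0.154).

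Several rises came from genes with almost no reads in thymus. Mmp9, a gelatinase that cuts basement membrane collagen, was 592, 1633 and 2051 in spleen and 0.0213, 0.0275 and 2.55 in thymus, at least 404-fold higher against a floor of 3 reads over the thymus libraries (adjusted p = 0.000592). It was the 1 called member of 14 tested matrix proteases, sheddases and inhibitors, whose median was 1.14 here, 0.35 in edgeR and 0.31 in DESeq2. The kinase Pak6, the RNA-binding protein Rbm24, the potassium channel subunit Kcnmb4 and the tyrosine kinase Fes were at least 137-fold, 203-fold, 256-fold and 65.8-fold higher on the same floor. Rbm24 was 315, 1571 and 260 and Kcnmb4 was 2184, 387 and 134 in spleen, so a single spleen library was high for each. Serpina3f, a protease inhibitor of a family of near-copies, was 4671, 1220 and 3329 against 5.63, 1.18 and 238. Pias4, a SUMO ligase, was 1951, 137 and 441 against 0.0213, 1.18 and 5.06. The remaining falls with a large change included Fgd6, an activator of the GTPase Cdc42, at 73.7, 18.5 and 121 against 5327, 2557 and 802 (log2 fold change -5.30, adjusted p = 0.0241). Themis, a regulator of receptor signals in thymocytes listed among immature thymocyte markers, was higher in spleen, at 5886, 3733 and 4354 against 127, 1043 and 465 (log2 fold change 3.53, adjusted p = 0.0165).

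Markers of other cells moved with the tissue in some lists. Of 12 measured B and plasma cell markers, 7 were tested and none called by limma-trend or edgeR (2 higher at an unadjusted p under 0.05). DESeq2 called none but gave no adjusted p for 4 of the 7, Igkc, Iglc2 and Cd22 among them. Their sum was 0.131%, 0.0259% and 0.0411% of the spleen libraries and 0.0131%, 0.0178% and 0.0191% of the thymus libraries. Cd79a was at 625 in spleen replicate 1 and at or near 0 in the other 5 libraries. The myeloid and dendritic cell list, with 9 measured, 4 tested and none past an unadjusted p under 0.05, held 0.0164%, 0.00245% and 0.00173% against 0.00112%, 0.000765% and 0.0012%, led by Csf1r at 1297 in spleen replicate 1. DESeq2 called none of the 4 and gave no adjusted p for Csf1r. The iNKT2 list (10 tested, none called, 3 higher unadjusted, 1 higher in DESeq2) took 0.105%, 0.12% and 0.126% of the spleen libraries and 0.0488%, 0.0886% and 0.0825% of the thymus libraries. Plac8 was the member of smallest p, at 1003 and 1806 in spleen replicates 2 and 3 against 0.0213, 8.12 and 233 (adjusted p = 0.0723). The iNKT17 list (7 tested, none called, 1 higher unadjusted, none in DESeq2) overlapped, at 0.00201% to 0.00388% in spleen and up to 0.00713% in thymus. Immature thymocyte markers (11 measured, 8 tested) had Themis called higher, 2 members above and 1 below thymus. Their sum was 0.0425%, 0.0415% and 0.0374% in spleen and 0.0219%, 0.0162% and 0.0277% in thymus. Themis made up 5886, 3733 and 4354 of the summed 11773, 9275 and 8870 in spleen. In thymus it made up 127, 1043 and 465 of 6145.5, 5189 and 6410. The higher sum therefore rests on Themis, and the sum of the other members overlapped between the tissues. Cd8a had no read in spleen and in thymus replicates 1 and 2 and was 257 in thymus replicate 3. Hepatocyte, erythroid and platelet markers overlapped between the tissues, and Pecam1, the tested endothelial marker, was 394, 1335 and 903 against 302, 71.7 and 218 (adjusted p = 0.287). The part of these cells in the called genes was not tested, apart from the counts without the 2 libraries.

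Of the 56 called genes, Gzmb and Fgl2 also differed between spleen and liver iNKT1 cells in the same fit, which shares the spleen libraries with the comparison above. Gzmb averaged 786 ± 527 in spleen, 8048 ± 2173 in liver and 15591 ± 1817 in thymus (SD, n = 3). For Gzmb the spleen minus liver log2 fold change was -3.51 and for Fgl2 it was -2.13, with adjusted p of 0.00378 for both. For the others a difference from liver was not shown.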

How the data were processed

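RNA-seq was measured in 9 libraries, of which 6 are compared here, grouped by the tissue label. Per the labels' protocols, total RNA from a micro kit went into ultralow-input libraries read for 76 cycles on a NextSeq500. Per the submitters' processing notes, Trimmomatic 0.33, TopHat2 2.1.0, HTSeq 0.6.1 and edgeR were used with the mm10 build; their settings are not given in the sources used here. The authors' deposited values are a normalised signal per gene, not whole counts. Low values lie on equal steps, so reads were recovered by division, and 98.2% to 100% of low values in the 6 libraries lay within 0.1 of a whole read. In liver replicate 3 only 72.9% did, so its recovered reads are less certain, and it held 3877694 reads. That library enters the main fit and the edgeR and DESeq2 fits. Symbols and positions came from GENCODE vM21 (13359 of 14004 identifiers matched).

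Differences were tested with limma-trend (limma 3.58.1, R 4.3.3) on log2(value + 1) in 1 fit of all 9 libraries with a term per tissue. This gives the liver libraries a part in the spread. For genes low in 1 tissue, fold changes on this scale can lie above or below the ratio of the tissue means. Irf4 had a log2 fold change of 8.12 and a ratio of 46.6, and Mmp9 had 9.66 and 1644. P-values are two-sided, adjusted by Benjamini-Hochberg over all tested genes. Named genes were the 12 largest rises and falls among called genes without overlap and with a mean of at least 10 in the higher tissue, called genes among the 500 of highest mean, the 10 of highest mean, and called or lowest-p list members; unnamed models were only counted, apart from Gm4956, and a few further list members (such as Prf1, Zbtb16, Itga4, S1pr1 and Cd79a) were chosen after their values were seen. The 50 lists and all members were chosen with earlier results of these data known, and some genes are not reported here. Alternatives were other scalings, filters and pseudocounts, edgeR 4.0.16 and DESeq2 1.42.0 on recovered reads, array weights, a replicate block, a term for Xist-high libraries, and leaving out each library. On simulated data of this comparison with 12512 genes, 17.2% of 4-fold and 49.2% of 32-fold changes were called, and 6.67% of calls were false. The simulation gave each gene 1 dispersion for all tissues, whereas the median SD was 1.37 in thymus and 0.73 in spleen. It therefore cannot give the share of false calls in the measured data. Floors and depths cover counting error only.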

Additional observations from a re-analysis of the deposited data

How the results depend on the processing

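No named gene that was called changed sign under the 23 alternatives. Against 56 calls (27 higher, 29 lower, 12 among the 500 abundant genes), DESeq2 on recovered reads gave 457 (225 higher, 232 lower, 37 abundant) and edgeR 35 (17, 18 and 7). The fit of the 6 spleen and thymus libraries gave 16 (3, 13 and 5), and libraries numbered 1 and 3 alone gave 17 (11, 6 and 4). Equal library totals gave 16 lower and 6 abundant calls, equal totals without mitochondrial genes 17 and 6, and a pseudocount of 8 gave 48 lower. Leaving out 1 library at a time gave 9 to 161 calls, 4 to 118 higher, 5 to 43 lower and 4 to 16 abundant: 14, 11 and 9 in all without spleen replicates 1, 2 and 3, 55, 56 and 161 without thymus replicates 1, 2 and 3, and 34, 37 and 32 without liver replicates 1, 2 and 3. The cause was not tested, beyond fewer libraries. Of the calls, 58.3% were higher with array weights and 73.3% without thymus replicate 3, beside 48.2%. Limma-trend on reads scaled to the total outside mitochondrial genes, chosen after seeing the data, gave 66 calls. The labels' replicate numbers are not stated to pair animals, and deviations of same-numbered libraries correlated at 0.0047, -0.0067 and 0.0575; with the replicate block 54 genes were called, 48 of them among the 56. The median of all genes was 0.30 as deposited, -0.01 in edgeR, -0.05 in DESeq2 and 0.46 with equal totals, so changes near that size depend on the scaling. Depth limits the folds of the 3140 genes with no read in at least 1 thymus library.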
